A study of Homo sapiens with 6 samples.

Results

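PRDM16 and its closest relative MECOM (also called PRDM3) are the 2 genes described here, out of 27439 genes with reads, of which 15984 were tested. They were selected on the read counts themselves, because PRDM16 is far lower in ventral midbrain than in control libraries, and MECOM was added as its paralog. Both genes passed the low-count filter. The samples are astrocytes made from H1 cells, a widely used line of human embryonic stem cells. The groups are ventral midbrain (VM iAst, 3 libraries) and control, which the labels equate with forebrain (Control iAst, 3 libraries), each with replicates numbered 2, 3 and 4. No age, day of differentiation or patterning agent is given in the labels used here, both groups come from 1 line, and nothing says that the libraries of a group came from separate cultures, so every p-value measures only the spread between these libraries. RNA was read from its 3' end, with 11617935 to 15391082 estimated reads per library.

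The labels name the source as astrocytes but give the stem cell as cell type. All 10 genes of the astrocyte marker list had enough reads to be tested. In edgeR 3 were higher in VM and 0 lower, against 1.06% and 1.09% of all tested genes, and with the replicate number as a block 3 were higher and 2 lower, against 3.63% and 4.5%. Their summed level was 789 to 1175 CPM (read counts set to a common library size, with TMM scaling) in VM and 821 to 930 CPM in control libraries. Of the pluripotency list, TDGF1 and UTF1 had no read, and the sum was 7.995 to 17.5 CPM in VM and 7.90 to 15.4 CPM in control libraries.

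PRDM proteins carry a PR domain, a relative of the SET domain of histone methyltransferases, usually followed by zinc fingers that bind DNA. PRDM16 and MECOM share the same layout, with a group of zinc fingers near the start and another near the end and a site between them that binds the corepressors CTBP1 and CTBP2. In mice, Prdm16 is known from brown fat, from cortical radial glia and from ependymal and choroid plexus cells, and Mecom from blood stem cells. Both genes also make shorter proteins that lack the PR domain, and the short form of MECOM is called EVI1.

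The promoters with an entry are shown here because PRDM16's divergent neighbour transcript (PRDM16-DT, named LINC00982 in GENCODE) and MECOM were both lower in VM libraries, and because MECOM has separate starts for its long and short forms. The sequences are RefSeq's (GRCh38.p14), each 300 bases 5' to 3' on the minus strand, from 250 bases before to 50 bases after a start. PRDM16-DT lies at chr1:3067676-3067975, around RefSeq's start of the transcript (3067725) and not the GENCODE start (3068437), the distal start of MECOM at chr3:169663663-169663962, and a proximal start at chr3:169146490-169146789. Another entry, for the other proximal start, is at chr3:169147422-169147721 and is not printed.
PRDM16-DT: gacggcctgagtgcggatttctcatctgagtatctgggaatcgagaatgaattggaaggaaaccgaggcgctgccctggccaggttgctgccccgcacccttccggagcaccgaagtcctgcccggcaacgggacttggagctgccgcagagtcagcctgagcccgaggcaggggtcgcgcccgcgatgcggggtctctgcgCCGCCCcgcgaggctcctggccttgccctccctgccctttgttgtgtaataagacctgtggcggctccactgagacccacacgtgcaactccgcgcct
MECOM distal start: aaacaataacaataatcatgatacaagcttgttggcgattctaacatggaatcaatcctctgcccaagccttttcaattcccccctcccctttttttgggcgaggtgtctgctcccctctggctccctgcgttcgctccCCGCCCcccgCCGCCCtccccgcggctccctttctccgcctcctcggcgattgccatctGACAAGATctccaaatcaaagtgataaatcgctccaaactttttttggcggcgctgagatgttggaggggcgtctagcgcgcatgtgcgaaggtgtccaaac
MECOM proximal start: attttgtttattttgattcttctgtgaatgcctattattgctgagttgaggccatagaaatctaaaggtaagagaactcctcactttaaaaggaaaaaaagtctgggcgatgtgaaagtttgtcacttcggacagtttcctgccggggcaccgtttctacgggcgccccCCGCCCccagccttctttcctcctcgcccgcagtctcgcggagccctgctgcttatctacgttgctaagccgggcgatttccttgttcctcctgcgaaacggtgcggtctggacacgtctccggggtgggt
Capitals mark every match, on either strand, to 5 words: GACAAGAT and GAAGATGAG, which are the core letters of the sites known for the zinc finger groups of MECOM, TAATTA, a homeodomain core, GGGCGG, a GC box, and TATAAA. The words were chosen after the sequences had been read. GACAAGAT occurred in the distal MECOM promoter and in 0.578% of 35116 promoters of this length. GGGCGG, written CCGCCC on the other strand, occurred in all 4 entries and in 45.0% of promoters. No match overlapped another. GAAGATGAG (0.347% of promoters), TAATTA (4.84%) and TATAAA (11.5%) were in none of the 4, which says only that these letters are not in these windows. PRDM16-DT's window held 25 CpG and 65.3% G or C, the distal MECOM window 19 and 54.7%, and the printed proximal one 19 and 52.3%, against medians of 14 and 58.7% over all promoters. The proximal entry not printed held 12 CpG and 52.3% G or C.

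PRDM16 (ENSG00000142611, chromosome 1, 3069168 to 3438621, plus strand, GRCh38) had 12, 9 and 22 reads in VM libraries, against 225, 277 and 259 reads in control libraries (replicates 2, 3 and 4). Scaled to library size, this was 0.780, 0.706 and 1.58 CPM in VM libraries, against 16.5, 23.7 and 19.6 CPM in control libraries. The groups were far apart, with the lowest control library 10.4 times above the highest VM library. VM replicate 4 was the highest of its group, and its 22 reads have a 95% exact Poisson interval of 13.8 to 33.3, which covers counting error only, against 4.12 to 17.1 for the 9 reads of replicate 3. The means were 1.02 ± 0.482 CPM in VM and 19.9 ± 3.63 CPM in control libraries (SD, n = 3 each). The log2 fold change over control was -4.27 ± 0.36 (SE, edgeR), and a fold that chose the gene is given without a test. It was the 21st lowest fold change of the 15984 tested genes. The signal normalized by the authors was 10.1, 8.63 and 21.4 in VM libraries, against 217, 353 and 268 in control libraries.

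MECOM (ENSG00000085276, chromosome 3, 169083499 to 169663618, minus strand, GRCh38) had 466, 318 and 425 reads in VM libraries, against 620, 634 and 878 reads in control libraries. This was 30.3, 24.9 and 30.4 CPM in VM libraries, against 45.4, 54.2 and 66.4 CPM in control libraries. The groups did not overlap, but the gap was small, the lowest control library standing 1.49 times above the highest VM library. The means were 28.6 ± 3.14 CPM in VM and 55.3 ± 10.6 CPM in control libraries (SD, n = 3 each), a log2 fold change of -0.95 ± 0.19 (SE, edgeR). It comes from the contrast that chose the pair, so it too is a description. Groups without overlap were found for 17.9% of tested genes, lower in VM for 8.75% and higher for 9.17%, and nothing is read from the 2 members against that. In bulk RNA, fewer cells that express a gene and less RNA per cell cannot be told apart.

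**Figure D1:**
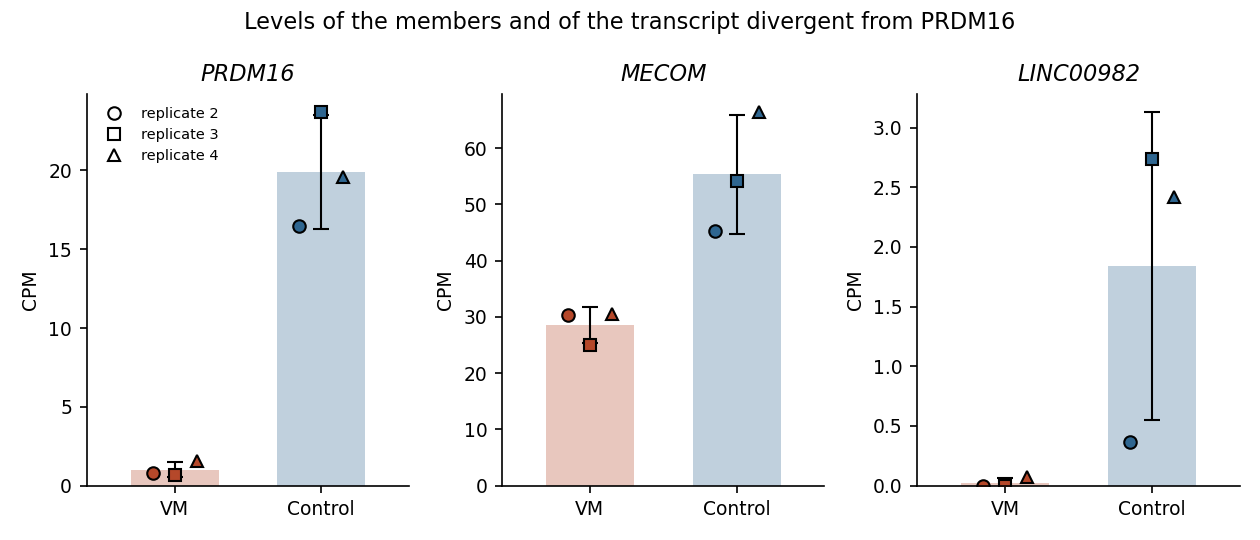
CPM in each library for PRDM16, MECOM and LINC00982, with VM left of control; bars are means, error bars SD (n = 3) and symbols the replicate number. PRDM16 stands at 0.706 to 1.58 CPM in VM and 16.5 to 23.7 CPM in control libraries, and MECOM at 24.9 to 30.4 CPM in VM and 45.4 to 66.4 CPM in control libraries.

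The log2 fold change of PRDM16 minus that of MECOM was -3.32. Per 100 reads of MECOM, PRDM16 had 2.58, 2.83 and 5.18 reads in VM libraries, against 36.3, 43.7 and 29.5 in control libraries. Per length, in the deposited TPM, PRDM16 was at 0.0296 to 0.0856 in VM and 0.697 to 1.38 in control libraries. MECOM was at 3.21 to 5.19 in VM and 5.61 to 8.56 in control libraries. Reads came from the 3' end, so dividing by transcript length does not give levels that compare the 2 genes. In VM replicate 4, the transcript MECOM-207 had 50 reads and 1.49 TPM, against 344 reads and 1.68 TPM for MECOM-219. The transcript MECOM-214 had 1.87 TPM there. In VM replicate 2 it had 0.843 TPM, against 1.62 TPM for MECOM-219. Within same-numbered libraries the difference in log2 CPM, VM minus control, was -4.16, -4.80 and -3.52 for PRDM16 and -0.58, -1.12 and -1.12 for MECOM in replicates 2, 3 and 4. The sign was the same in all 3 pairs for both genes, while replicate 2 gave the smallest difference for MECOM and replicate 4 for PRDM16.

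Markers of other cell types were also set side by side. Of 10 mesenchymal markers 3 were lower in VM libraries and 0 higher, against 1.09% and 1.06% of all tested genes, and with the replicate block 4 were lower and 1 higher, against 4.5% and 3.63%. Their summed level was 720 to 923 CPM in VM and 1175 to 1826 CPM in control libraries. COL1A1, a fibrillar collagen gene, made most of that gap, with a mean of 277 CPM in VM and 910 CPM in control libraries, and 4 of the 10 had a positive log2 fold change. Of 9 tested neuron markers 0 passed in edgeR or voom (edgeR p below 0.05 before adjustment in 2). DESeq2 called 2 lower, against 395 of all 15984 tested genes, and 3 were lower with the block. The neuron sum was 712 to 1191 CPM in VM and 1267 to 1996 CPM in control libraries. STMN2, a microtubule regulator gene of neurons, averaged 449 CPM in VM and 1061 CPM in control libraries, and 4 of the 9 had a positive log2 fold change. Of 6 tested endothelial markers 0 passed in edgeR, DESeq2 or voom (edgeR p below 0.05 before adjustment in 2), and the sum of all 10 was 10.9 to 15.6 CPM in VM and 19.2 to 22.2 CPM in control libraries. Choroid plexus markers summed to 6.04 to 13.8 CPM in VM and 14.0 to 29.3 CPM in control libraries, with no read of TTR, and of 3 tested 0 passed in edgeR, DESeq2 or voom (edgeR p below 0.05 before adjustment in 1) and 1 was lower with the block. OTX2, a homeobox gene on that list, averaged 2.33 CPM in VM and 17.6 CPM in control libraries.

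Each of these 4 sums was apart between the groups, but each overlapped once the gene with the widest gap was left out, a step chosen after the sums were seen. Leaving out that gene narrows a gap by construction, so the step does not show that 1 gene carries it. PRRX1 and COL3A1 were also called lower in edgeR (adjusted p = 0.0050 and 0.038), and DCX and NEFL with the block (0.0034 and 0.030). A positive log2 fold change was found for 4 of 10 mesenchymal and 4 of 9 tested neuron markers. The other 6 mesenchymal markers were negative. POSTN averaged 124 CPM in VM and 65.8 CPM in control libraries (edgeR adjusted p = 0.060; blocked, 0.00030). LUM and DCN, both low, averaged 2.80 and 1.81 CPM in VM, against 0.524 and 0.407 CPM in control libraries (edgeR adjusted p = 0.30 and 0.29). The mesenchymal markers thus moved in both directions. Without COL1A1 the mesenchymal sum was 485 to 612 CPM in VM and 504 to 844 CPM in control libraries. Without STMN2 the neuron sum was 493 to 621 CPM in VM and 540 to 628 CPM in control libraries. Without OTX2 the choroid plexus sum was 4.31 to 8.81 CPM in VM and 3.88 to 7.36 CPM in control libraries, and without KDR, a receptor gene of endothelial cells, the endothelial sum was 5.41 to 11.6 CPM in VM and 10.0 to 13.4 CPM in control libraries. Radial glia markers summed to 5284 to 6486 CPM in VM and 4576 to 5439 CPM in control libraries, with 1 of 10 higher and 1 lower. The part of such cells in the levels of PRDM16 and MECOM was not tested.

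All PRDM16 reads went to 1 of its 10 matched transcripts, PRDM16-201, which runs to the last annotated base of the gene (3438621). This held in each of the 6 libraries. The other 9 transcripts, among them 5 with ends between 3433925 and 3434342, received no read. PRDM16-201 is a full-length coding transcript, but a 3' read shows where the RNA ends, not which start or which inner exons it has, so the forms with and without the PR domain cannot be told apart here. No stretch of 31 bases in PRDM16 transcripts occurred in a MECOM transcript (0 of 9836), and none in the last 600 bases of the transcript with most reads was found in any other gene, for either member, so reads of this length or more would not be shared between the paralogs.

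MECOM reads fell on 8 of 19 matched transcripts and on 7 annotated 3' ends, where ends within 200 bases were joined. The last end of the gene (169083499 to 169083507) took 91.5%, 89.6% and 82.4% of MECOM reads in VM libraries, against 88.2%, 86.5% and 90.1% in control libraries. The groups overlap, at 87.8% ± 4.84 in VM and 88.3% ± 1.81 in control libraries (SD, n = 3 each). Most of these reads were assigned to MECOM-219, which starts near the proximal promoter, although MECOM-201 has the same start and end and received none, and transcripts that share an end cannot be separated by 3' reads. MECOM-217, which begins near the distal start, ends at 169084761 in the annotation and received no read. At the last end MECOM stood at 27.7, 22.3 and 25.1 CPM in VM libraries, against 40.0, 46.9 and 59.9 CPM in control libraries.

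The end with the next most reads belongs to MECOM-207 (169127907 to 169128045), with 1.30, 1.41 and 3.58 CPM in VM libraries, against 2.93, 3.25 and 4.24 CPM in control libraries. VM replicate 4 lies within the range of the control libraries there. MECOM-214, a short transcript from near the distal start that ends at 169381259, had 0.619, 0.778 and 1.29 CPM in VM libraries, against 2.05, 2.38 and 1.71 CPM in control libraries. These groups do not overlap. Its share of MECOM reads was 3.13% ± 1.10 in VM and 3.83% ± 1.09 in control libraries (SD, n = 3 each), a difference smaller than the spread. The annotation marks the ends of MECOM-207 and MECOM-214 as not found, so these positions need not be true RNA ends. The other 4 ends had 4 to 27 reads over all libraries.

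**Figure D2:**
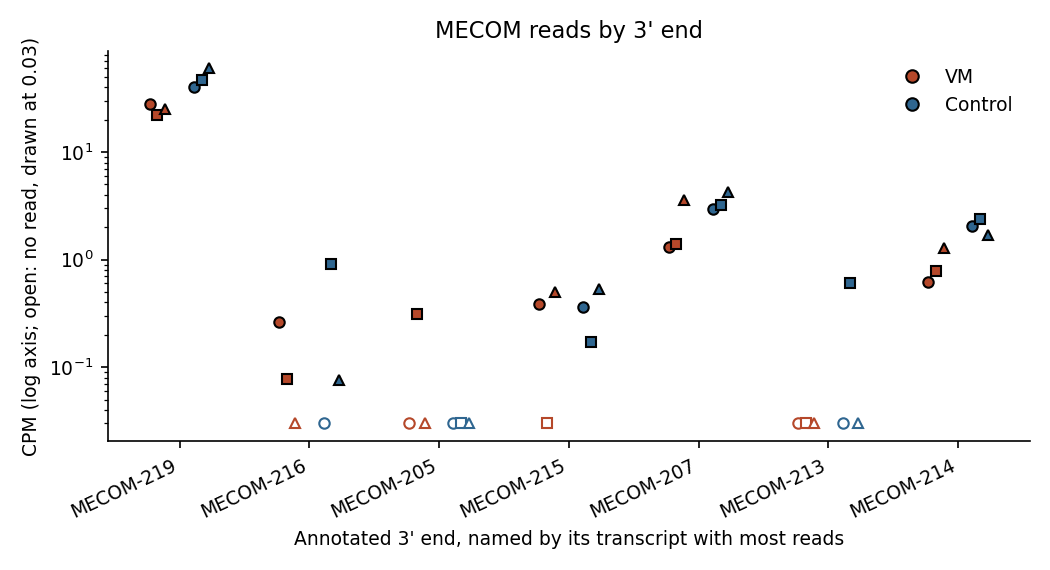
CPM of MECOM by annotated 3' end and library on a log axis, each end named by its transcript with most reads; VM is left of control, circles, squares and triangles are replicates 2, 3 and 4, and open symbols are libraries with no read. The last end of the gene (MECOM-219) holds most reads, with 22.3 to 27.7 CPM in VM and 40.0 to 59.9 CPM in control libraries.

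LINC00982, a long noncoding RNA whose GENCODE start (3068437) lies 731 bases before PRDM16 and which runs the other way, had 0, 0 and 1 reads in VM libraries, against 5, 32 and 32 reads in control libraries. Control replicate 2, also the lowest of its group for PRDM16, was the lowest here, and 0 reads have a 95% exact Poisson upper limit of 3.69. Summed over the groups, 1 read in VM stood against 69 in control, a ratio of 75.3 for control over VM, with a 95% exact counting interval of 13.1 to 3017. That interval treats reads as independent and leaves out the spread between libraries, such as 5 against 32 reads within the control group. The low-count filter kept it out of the edgeR test. Without the filter edgeR gave an adjusted p of 0.0010, and DESeq2 gave 0.0033. Of 2 further noncoding genes inside the PRDM16 body, AL590438.1, on the opposite strand, had 0 reads in every VM library, against 7, 2 and 7 reads in control libraries. AL512383.1, on the same strand and named after its values were seen, had 0, 0 and 3 reads in VM libraries, against 0, 15 and 15 reads in control libraries. Reads of AL512383.1 cannot be separated from unspliced PRDM16 RNA, and no source used here says whether AL590438.1 was counted by strand.

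No tested gene around PRDM16 or MECOM passed in edgeR. Within 500 kb of either gene, 41 genes had reads and 21 were tested, of which 0 passed in edgeR or voom, against 2.15% of all tested genes in edgeR (1.09% lower and 1.06% higher). Before adjustment 2 of the 21 had an edgeR p below 0.05. DESeq2 called 1 of the 41, LINC00982. The median log2 fold change was -0.29 for the 14 tested near PRDM16, -0.14 for the 7 near MECOM and 0.01 for all tested genes. The nearest tested genes of PRDM16 were TTC34, 267 kb before its start, with -0.40 ± 0.40 (SE), and MEGF6, 51.3 kb past its end, with -0.04 ± 0.82. For MECOM they were TERC, the telomerase RNA, 101 kb before its start, with -0.67 ± 0.59, and EGFEM1P, 253 kb past its end, with 0.05 ± 0.86 (edgeR adjusted p from 0.75 to 0.995 for these 4).

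**Figure D3:**
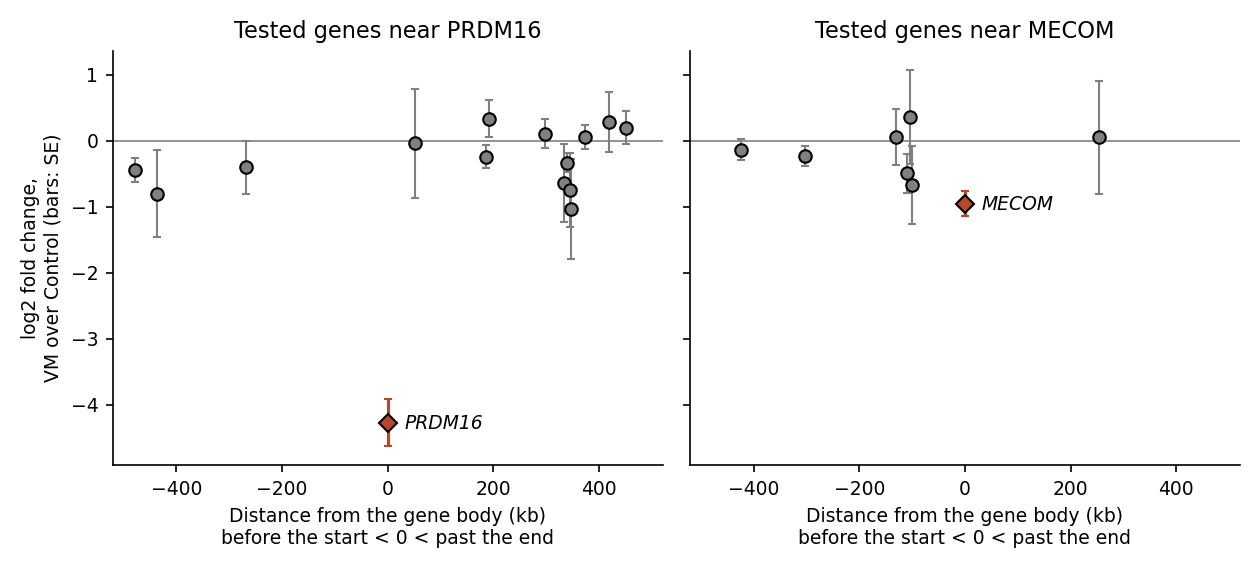
Log2 fold change, VM over control, of tested genes within 500 kb of PRDM16 (left) and MECOM (right) against distance from the gene body in kb; bars are SE, and the diamond is the member. PRDM16 is at -4.27 while the tested genes around it lie between -1.03 and 0.33. LINC00982, AL590438.1 and AL512383.1, the closest to PRDM16, were too low to test and are not drawn. They had 1, 0 and 3 reads in VM libraries, against 69, 16 and 30 reads in control libraries.

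None of the other PRDM genes passed. Of 15 on the list, 9 were tested, and 0 passed in edgeR, DESeq2 or voom (edgeR p below 0.05 before adjustment in 0). Of all tested genes 2.15% passed in edgeR. With 9 genes, 0 is near that share, and nothing is read from it. PRDM2, a histone methyltransferase with the highest level among them, was at 52.8, 62.8 and 55.1 CPM in VM libraries, against 52.4, 45.3 and 46.5 CPM in control libraries (log2 fold change 0.24 ± 0.15; edgeR adjusted p = 0.61). PRDM4 averaged 25.6 ± 5.27 CPM in VM and 29.6 ± 5.35 CPM in control libraries, and PRDM11 3.68 ± 0.471 CPM in VM and 5.36 ± 1.71 CPM in control libraries (SD, n = 3 each). The log2 fold changes of PRDM6, PRDM10, PRDM15 and ZNF408 lay between 0.10 and 0.38. PRDM1, a repressor best known from plasma cells, followed the replicate number, not the group, with 3.90, 0.470 and 4.58 CPM in VM libraries, against 4.90, 0.171 and 6.43 CPM in control libraries. PRDM8, a cortical gene in mice, was too low to be tested, at 0.130, 0.627 and 0.215 CPM in VM libraries, against 0.585, 0.684 and 0.529 CPM in control libraries, as were PRDM12, PRDM13 and PRDM14, and PRDM7 and PRDM9 had no read.

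**Figure D4:**
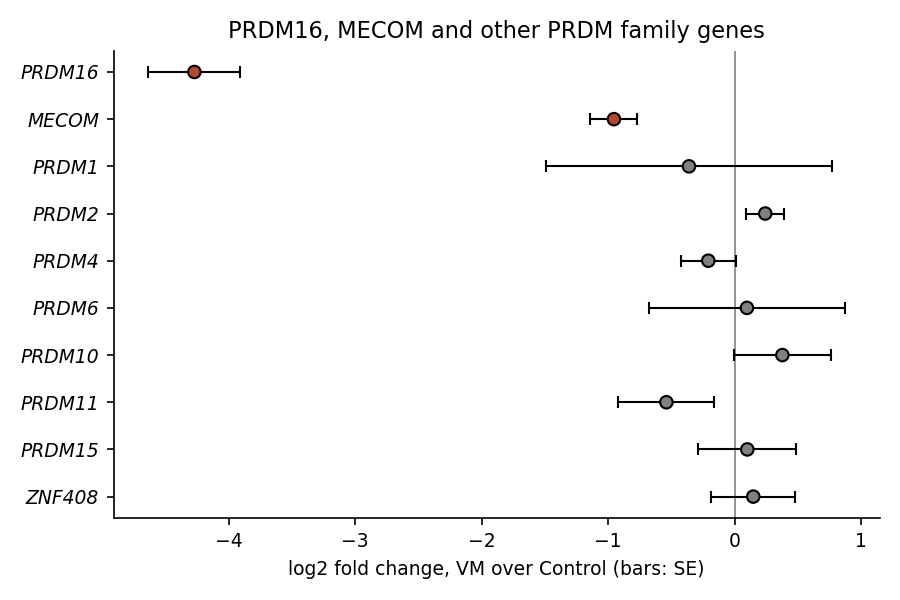
Log2 fold change, VM over control, with SE, of PRDM16 and MECOM (in colour) and of PRDM family genes named in the text. PRDM16 is at -4.27 and MECOM at -0.95, and the others shown lie between -0.54 and 0.38.

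No gene for a protein reported to work with PRDM16 or MECOM passed. All 20 such genes were tested and 0 passed in edgeR, DESeq2 or voom (edgeR p below 0.05 before adjustment in 2). In edgeR 2.15% of all tested genes passed, so 0 of the 20 is near that share. The list's median log2 fold change was 0.11, against 0.01 for all tested genes. CTBP2, a corepressor bound by both proteins, was at 202, 216 and 185 CPM in VM libraries, against 277, 255 and 232 CPM in control libraries (edgeR adjusted p = 0.38). SMAD2, a transducer of TGF-beta signals, had a log2 fold change of 0.19 (edgeR adjusted p = 0.74). With the replicate number as a block 1 of the 20 was called, against 8.13% of all tested genes. This was CEBPB, a transcription factor and partner in brown fat, at 144 ± 7.93 CPM in VM and 99.3 ± 22.7 CPM in control libraries (SD, n = 3 each; edgeR adjusted p = 0.22; blocked, 0.033). Of 12 other histone lysine methyltransferases 0 passed in edgeR, DESeq2 or voom, against the same 2.15% in edgeR (p below 0.05 before adjustment in 0). Those with the highest levels, KMT2A and ASH1L, had log2 fold changes of -0.33 and 0.01.

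Of the brown fat list, 10 of 20 genes were tested and 0 passed in edgeR, DESeq2 or voom (edgeR p below 0.05 before adjustment in 2). Of all tested genes 2.15% passed in edgeR. The defining gene UCP1, the uncoupling protein of brown fat, had no read, and nor had ADIPOQ, ADRB3 or LHX8. PDK4, a kinase that curbs pyruvate oxidation and the highest of the list, averaged 763 CPM in VM and 693 CPM in control libraries (edgeR adjusted p = 0.89). TBX15, a mesenchymal transcription factor, was at 46.3, 32.9 and 23.1 CPM in VM libraries, against 81.7, 43.7 and 48.4 CPM in control libraries (edgeR adjusted p = 0.35; blocked, 0.0058). These groups overlap, and TBX15 was the 1 gene of 10 tested called with the block, a share near the 8.13% of all tested genes.

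LMO2 fell among the blood genes tied to MECOM. It codes for a LIM-only bridging factor of blood and endothelial cells, and had 1.17, 0.314 and 0.0716 CPM in VM libraries, against 12.7, 8.73 and 10.8 CPM in control libraries. No VM library came near the control range, and the log2 fold change was -4.32 ± 0.67 (SE; edgeR adjusted p = 0.011; blocked, 0.00016). The call was lost without control replicate 4 (adjusted p = 0.057), and the log2 fold change was -5.77 without VM replicate 2 and -3.81 without VM replicate 4. Of 7 tested genes of this list 1 was lower and 0 higher, against 1.09% lower among all tested genes. GATA2, a transcription factor of blood progenitors named after its values were seen, had 1.56, 3.999 and 1.72 CPM in VM libraries, against 0.146, 0 and 0.681 CPM in control libraries (edgeR adjusted p = 0.18; blocked, 0.078). DESeq2 called it higher (adjusted p = 0.040). TAL1, GATA1 and HOXA9 had no read. MEIS1, a homeobox gene among the highest of the list, had a log2 fold change of -0.01 (edgeR adjusted p = 0.995). RUNX1, a blood transcription factor, was also called with the replicate block, at 31.7, 15.9 and 49.3 CPM in VM libraries, against 58.3, 29.9 and 53.6 CPM in control libraries (edgeR adjusted p = 0.73; blocked, 0.040). Its groups overlap. With the block 2 of the 7 tested genes were lower and 0 higher, against 4.5% and 3.63% of all tested genes.

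In the list from cortical, ependymal and choroid plexus cells, where mouse Prdm16 has been studied, 3 of 13 tested genes fell and 0 rose in edgeR, against 1.09% and 1.06% of all tested genes. DESeq2 called 6 lower and 1 higher, and voom 3 lower and 1 higher, the higher one being FOXJ1. Of the 15984 tested genes, DESeq2 called 395 lower and 315 higher, and voom 135 lower and 127 higher. EMX2, a homeobox gene of the cortex, was at 3.19, 4.08 and 2.79 CPM in VM libraries, against 25.7, 36.6 and 45.1 CPM in control libraries (-3.42 ± 0.28 on the log2 scale, SE; edgeR adjusted p = 0.00035; blocked, 1.6e-06). PAX6 and LHX2, further cortical homeobox genes, fell by 2.16 and 3.81 on the log2 scale (edgeR adjusted p = 0.019 for PAX6 and 0.028 for LHX2; blocked, 0.0039 for PAX6 and 0.067 for LHX2). PAX6 lost its call without control replicate 4 or any 1 of the VM libraries (highest adjusted p = 0.096). It was also lost with the signal normalized by the authors (limma adjusted p = 0.090) and with a gene-length offset (edgeR adjusted p = 0.18). LHX2 lost its call without any 1 of the control libraries or VM replicate 3 (highest 0.11). Without VM replicate 3, 1 gene of the list passed. The median of the list was -0.43. The list was fixed with earlier results of these data known, and the labels equate control with forebrain. Lower cortical genes in VM libraries therefore cannot be told apart from the regional difference between the groups. Nothing about PRDM16 is read from them.

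PDZRN3, a ubiquitin ligase gene that Prdm16 represses in mouse cortex, was named after its values were seen and was at 61.9, 77.7 and 93.5 CPM in VM libraries, against 73.3, 52.5 and 104 CPM in control libraries (log2 fold change 0.02 ± 0.25; edgeR adjusted p = 0.99). The groups overlap throughout. SOX2 and HES1, progenitor factors with the highest levels of the list, had log2 fold changes of -0.19 and 0.11 (edgeR adjusted p = 0.72 and 0.90). In the fit with the replicate block 5 genes were lower and 1 higher, against 4.5% and 3.63% of all tested genes. Besides EMX2 and PAX6 the lower ones were NFIX, EOMES and HGF (edgeR adjusted p = 0.14 for NFIX, 0.11 for EOMES and 0.12 for HGF; blocked, 0.0035 for NFIX, 0.033 for EOMES and 0.035 for HGF). NFIX, a nuclear factor I gene, averaged 119 ± 30.6 CPM in VM and 190 ± 16.6 CPM in control libraries. HGF, the hepatocyte growth factor gene, averaged 1.20 ± 0.657 CPM in VM and 4.55 ± 1.57 CPM in control libraries (SD, n = 3 each). FOXJ1, the regulator of motile cilia, was the higher one, at 82.4, 54.0 and 50.7 CPM in VM libraries, against 16.1, 10.95 and 3.48 CPM in control libraries (edgeR adjusted p = 0.087; blocked, 0.0013; DESeq2, 2.5e-09; voom, 0.017).

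**Figure D5:**
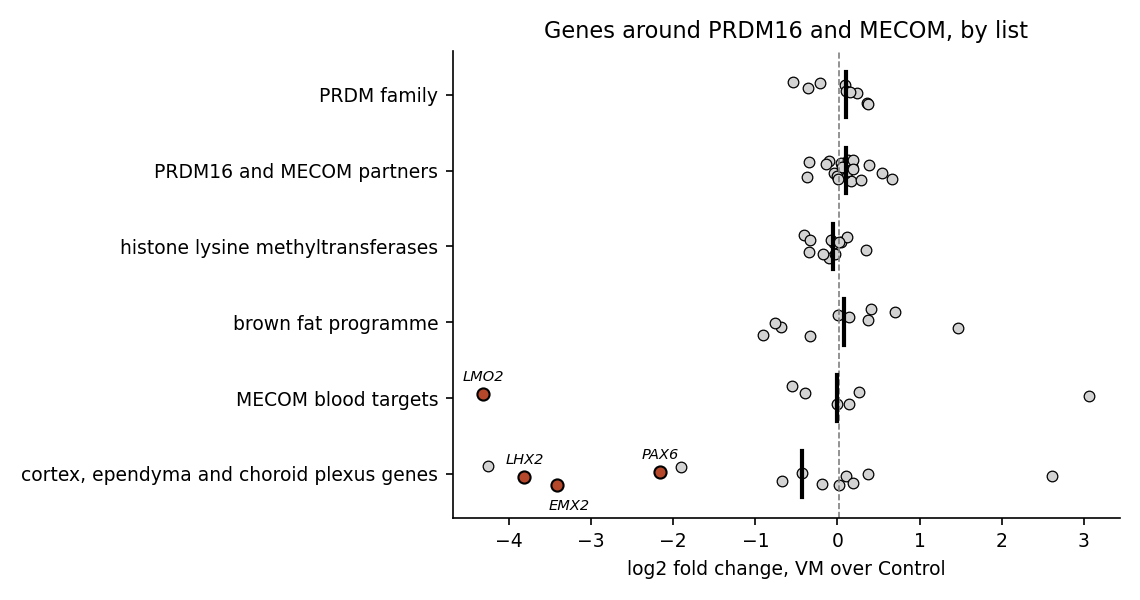
Log2 fold change, VM over control, of the tested genes of each list (points, jittered vertically), with the list's median (bar), the median of all tested genes (dashed line) and genes past edgeR's adjusted p of 0.05 in colour. EMX2, LHX2, PAX6 and LMO2 are the coloured points, at -3.42, -3.81, -2.16 and -4.32.

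Across the 6 libraries, log2 CPM of PRDM16 was set against that of 11181 other protein-coding genes with a mean of at least 2. The most alike by Pearson's r were SAMHD1 (0.997), GCNT1 (0.993), MAF (0.991), NRN1 (0.991) and TKTL1 (0.989). The most opposite were SPECC1 (-0.997) and QKI (-0.995). Libraries of 2 groups that differ give many genes a high r, and 95 genes reached 0.95. NRN1, the neuritin gene, had 9.75, 8.94 and 10.3 CPM in VM libraries, against 39.1, 43.9 and 48.9 CPM in control libraries. SAMHD1, a nucleotide hydrolase gene, had 6.63, 6.43 and 7.23 CPM in VM libraries, against 10.3, 11.2 and 11.3 CPM in control libraries, a much smaller step with the same order of groups.

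Among the most like MECOM were PCDH20 (0.996), PCDH18 (0.991), LPGAT1 (0.990) and RASSF3 (0.989), and the most opposite GALNT10 (-0.998) and SMAD6 (-0.995), with 102 genes at 0.95 or more. PCDH18, a protocadherin gene, had 20.3, 11.2 and 17.8 CPM in VM libraries, against 57.8, 67.3 and 101 CPM in control libraries. As with MECOM, VM replicate 3 was the lowest and control replicate 4 the highest library. SMAD6, an inhibitor of BMP signals, had 27.4, 31.3 and 24.6 CPM in VM libraries, against 17.3, 13.4 and 11.5 CPM in control libraries. These genes were picked by their likeness over the same libraries, so their group differences are given without a test.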

How the data were processed

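The deposited files hold, per library, estimated counts and TPM per transcript with effective lengths, made by the authors with Salmon (no version given) on GRCh38.p13, per the submitters' processing notes. A further deposited table holds gene signal normalized by the authors; those notes name DESeq2 1.27.12.

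Estimated counts were summed per gene with GENCODE release 29 (GRCh38), matching 205225 of 226608 transcripts (90.6%) by unversioned identifier; unmatched ones held 0.992% to 1.12% of reads. Sums were rounded, filtered with filterByExpr (15984 of 27439 genes kept), scaled by TMM and tested with edgeR 4.0.16 (quasi-likelihood, robust; R 4.3.3), Benjamini-Hochberg adjusted over all tested genes at 0.05. The SE of a log2 fold change was derived from the test, as its absolute value divided by the square root of the quasi-likelihood F. TPM are given only as per-length levels. Deviations from group means correlated at 0.234, 0.345 and 0.204 between same-numbered libraries, against at most 0.0237 for others. Deviations cancel within a group, so positive values for same-numbered libraries push the others down by construction. Because the same-numbered values were all positive, the replicate number was used as a block in an alternative fit. The main fit leaves it out, and no label says what it marks. PRDM16, MECOM and the gene lists were chosen with earlier results of these data known. Named genes are the PRDM family, called and highest genes of each list, nearest tested neighbours, overlapping or divergent partners, and the 5 most alike and 2 most opposite genes by correlation; some of them are not reported here. GATA2, PDZRN3, marker genes and genes called only with the replicate block were added after their values were seen. COX8B of the brown fat list had no match. The fit was tested on simulated data. Alternatives are listed in the closing section. Figures used matplotlib 3.10.9.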

Additional observations from a re-analysis of the deposited data

How the results depend on the processing

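The log2 fold change of PRDM16 was -4.37 to -4.26 and that of MECOM -0.96 to -0.92 with other scalings (upper quartile, RLE), without a filter or with 2 CPM required in 3 libraries, with voom (limma 3.58.1) or DESeq2 1.42.0, and with the replicate block, a gene-length offset, the deposited values on log2(value + 1) and protein-coding genes alone. Leaving out 1 library gave -4.72 (without VM replicate 4) to -4.08 and -1.08 to -0.81. With the replicate block they were -4.29 and -0.94.

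The count of all genes called, 344, was 728 with DESeq2 (over 27439 genes, since it ran without the low-count filter), 165 with the deposited values, 174 with the gene-length offset, 1012 without the filter, 1300 with the replicate block and 131 to 258 with 1 library left out. Neighbours called numbered 1 with DESeq2 and 1 without the filter, and 0 to 1 with 1 library left out. Partners numbered 1 with the block. Brown fat genes numbered 1 without the filter and 1 with the block, and 0 to 1 with 1 library left out (1 without VM replicate 3). Blood genes numbered 2 with DESeq2 or without the filter (1 higher, 1 lower) and 2 with the block (both lower), and 0 to 1 with 1 library left out (0 without control replicate 4). Cortex, ependyma and choroid plexus genes numbered 7 with DESeq2, 6 without the filter and 6 with the block, in each 1 of them higher (with the deposited values 2 lower and 1 higher), and 1 to 2 with 1 library left out. The PRDM family and methyltransferase counts stayed at 0 in every setting run. The MECOM share at the last 3' end, -0.457 points for VM minus control, was the same when ends within 50 or 1000 bases were joined, 0.963 with TPM and -2.29 to 2.28 with 1 library left out, all within 1 SD. Over 16 settings for 41 other named genes, 30 values lost the call, 11 gained it and 0 changed direction with a call. The block changed the count of no other list among these. PRDM16 rests on 9 to 22 reads in a VM library, so its level there is known only within its counting interval. Why counts differ between settings was not tested.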
